A study of Mus musculus with 24 samples.

Results

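Slc2a2, Gckr, Pfkl, Pfkfb1, Pfkfb3, Pklr, Gys2 and Pygl are 8 genes through which liver takes up glucose, burns it in glycolysis or stores it as glycogen. They were taken from the 53677 gene identifiers of the count table by their symbols, and all 8 passed the filter on low counts, as did 14533 genes in all. RNA was sequenced from 24 mouse livers, each from its own mouse and in its own library. The mice were 129S1/SvImJ or C57BL/6J, both inbred. The 4 groups were 129S1/SvImJ on high-fat diet (n = 6), 129S1/SvImJ on chow (n = 5), C57BL/6J on high-fat diet (n = 7) and C57BL/6J on chow (n = 6). The labels name no transgene, drug or other agent, and age, diet composition and feeding time are not stated in them. The comparisons asked how the diet changed liver RNA in each strain and how the strains differed on each diet.

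In hepatocytes, glucose crosses the cell membrane through GLUT2, the product of Slc2a2, and is then phosphorylated. Gckr encodes a regulatory protein that restrains this phosphorylation when glucose is scarce. Phosphofructokinase (Pfkl) and pyruvate kinase (Pklr) are control points of glycolysis. The bifunctional enzymes made from Pfkfb1 and Pfkfb3 set the level of fructose 2,6-bisphosphate, which activates phosphofructokinase, while Gys2 and Pygl encode the liver forms of glycogen synthase and glycogen phosphorylase.

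Sequence upstream of a start site is shown for 3 of these genes: Pklr and Slc2a2, whose levels moved together most closely from mouse to mouse, and Pfkfb3, whose level varied most. The windows come from RefSeq (GRCm38.p6, the mm10 build), which had an entry for 7 of the 8 genes, and bases annotated as exon in GENCODE were left out. Each is written 5′ to 3′ on the strand of the gene. The Pklr window lies on the plus strand at chr3:89136373-89136571, upstream of the second of the RefSeq starts. The Slc2a2 window lies on the plus strand at chr3:28697653-28697902. The Pfkfb3 window lies on the minus strand at chr2:11502102-11502340, upstream of a RefSeq start that is inside the gene as annotated in GENCODE.
Pklr: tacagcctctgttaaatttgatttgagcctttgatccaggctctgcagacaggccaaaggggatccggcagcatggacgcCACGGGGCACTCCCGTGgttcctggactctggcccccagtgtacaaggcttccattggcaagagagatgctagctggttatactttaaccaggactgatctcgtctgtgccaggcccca
Slc2a2: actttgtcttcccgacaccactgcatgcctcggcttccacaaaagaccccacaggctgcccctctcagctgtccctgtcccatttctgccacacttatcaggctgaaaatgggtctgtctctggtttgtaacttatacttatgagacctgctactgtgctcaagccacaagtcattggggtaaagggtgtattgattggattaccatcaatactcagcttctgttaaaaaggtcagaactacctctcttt
Pfkfb3: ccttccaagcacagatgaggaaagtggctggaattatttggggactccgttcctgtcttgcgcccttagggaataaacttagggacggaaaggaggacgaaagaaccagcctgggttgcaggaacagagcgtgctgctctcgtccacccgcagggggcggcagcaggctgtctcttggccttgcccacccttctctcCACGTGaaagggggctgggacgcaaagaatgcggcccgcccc
Capitals mark matches to 2 motifs that were searched on both strands of the 250 bases before each start. In Pklr they mark the pattern of a carbohydrate response element, CANGNG and CNCNTG with any 5 bases between them, the kind of site bound by the glucose-responsive factor ChREBP. The match lay 170 to 154 bases before the start, and 0.454% of 32851 mouse promoter windows held this pattern. In Pfkfb3 they mark the E-box CACGTG, 53 to 48 bases before the start, which 6.02% of the windows held. In all, 12 windows of 7 of the genes were searched. The other window of Pklr and that of Pfkfb3, at chr2:11553930-11554179, held neither motif and are not shown. The Slc2a2 window held neither of these. A match describes the letters only.

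Total counts ran from 6707013 to 13035534 in 129S1/SvImJ on high-fat diet, from 7607255 to 9184270 in 129S1/SvImJ on chow, from 8294723 to 13124881 in C57BL/6J on high-fat diet and from 10162138 to 12826048 in C57BL/6J on chow. The lowest count of any of the 8 genes in any library was 91, for Pfkfb3. The summed level of the hepatocyte markers Alb, Ttr, Apoa1, Cps1 and Tat was 53548 to 75785 CPM in 129S1/SvImJ on high-fat diet and 69389 to 88386 CPM on chow, and 55490 to 75653 CPM in C57BL/6J on high-fat diet and 82231 to 88877 CPM on chow. CPM are library counts divided by the effective library size of edgeR. The summed level of 9 Kupffer cell markers was 131 to 301 CPM in 129S1/SvImJ on high-fat diet and 241 to 602 CPM in C57BL/6J on high-fat diet. On chow it was 85.2 to 226 CPM in 129S1/SvImJ and 258 to 426 CPM in C57BL/6J. Of 6 fat-cell markers, Adipoq, Lep, Plin1 and Retn together exceeded 1 CPM in 2 libraries, high-fat C57BL/6J replicate 5 (6.31 CPM) and chow 129S1/SvImJ replicate 1 (1.36 CPM), which are called the libraries with fat-cell transcripts here. The other two, Cfd and Fabp4, were higher on high-fat diet in C57BL/6J: Cfd was 147 ± 79.8 CPM on high-fat diet and 3.53 ± 3.53 CPM on chow, and Fabp4 was 11.3 ± 6.71 CPM on high-fat diet and 3.76 ± 0.581 CPM on chow (SD, n = 7 and 6; edgeR adjusted p = 1.17e-05 and 0.000832). Summed over all 6, the level was 2.98 to 4.94 CPM in 129S1/SvImJ on high-fat diet and 1.46 to 8.53 CPM on chow, and 50.4 to 267 CPM in C57BL/6J on high-fat diet and 3.76 to 12.3 CPM on chow. The non-coding RNA 7SK ran from 2097 to 7258 CPM over the 24 libraries. These are bulk samples, in which fewer cells of a type and less RNA per cell cannot be told apart.

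Of these genes, 1 passed the test for diet, in C57BL/6J, and 3 differed between strains. On high-fat diet none of the 8 passed the test in 129S1/SvImJ, where 10.4% of all tested genes were called at an edgeR adjusted p under 0.05 (5.41% higher and 5.01% lower). In C57BL/6J 1 of the 8, Gys2, was lower, where 14.9% of all genes were called (7.66% higher and 7.20% lower). Between strains, Gckr and Pfkl were higher in 129S1/SvImJ on both diets and Pygl was higher on high-fat diet. These were 3 of 8 on high-fat diet, where 37.0% of all genes were called (17.9% higher and 19.1% lower), and 2 of 8 on chow, where 25.0% were called (12.6% higher and 12.5% lower). Over both directions, the shares of the 8 genes lie close to or under those of all genes. Counted as higher calls alone, 3 and 2 of 8 are larger shares than 17.9% and 12.6%, a difference of 1 or 2 genes that was not tested. None was called for a difference between strains in the response to diet, for which 0.296% of all genes were called (0.172% higher and 0.124% lower). By the same edgeR test 2 of the 8, Gys2 and Pygl, had an unadjusted p under 0.05 for that difference, as did 2077 of all 14533 genes. DESeq2 called none of the 8. The median log2 fold change of the 8 genes was 0.02 in 129S1/SvImJ and -0.02 in C57BL/6J for diet, and 0.21 on high-fat diet and 0.10 on chow for strain. Over all tested genes it was between -0.01 and 0.01 in all 5 comparisons.

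**Figure D1:**
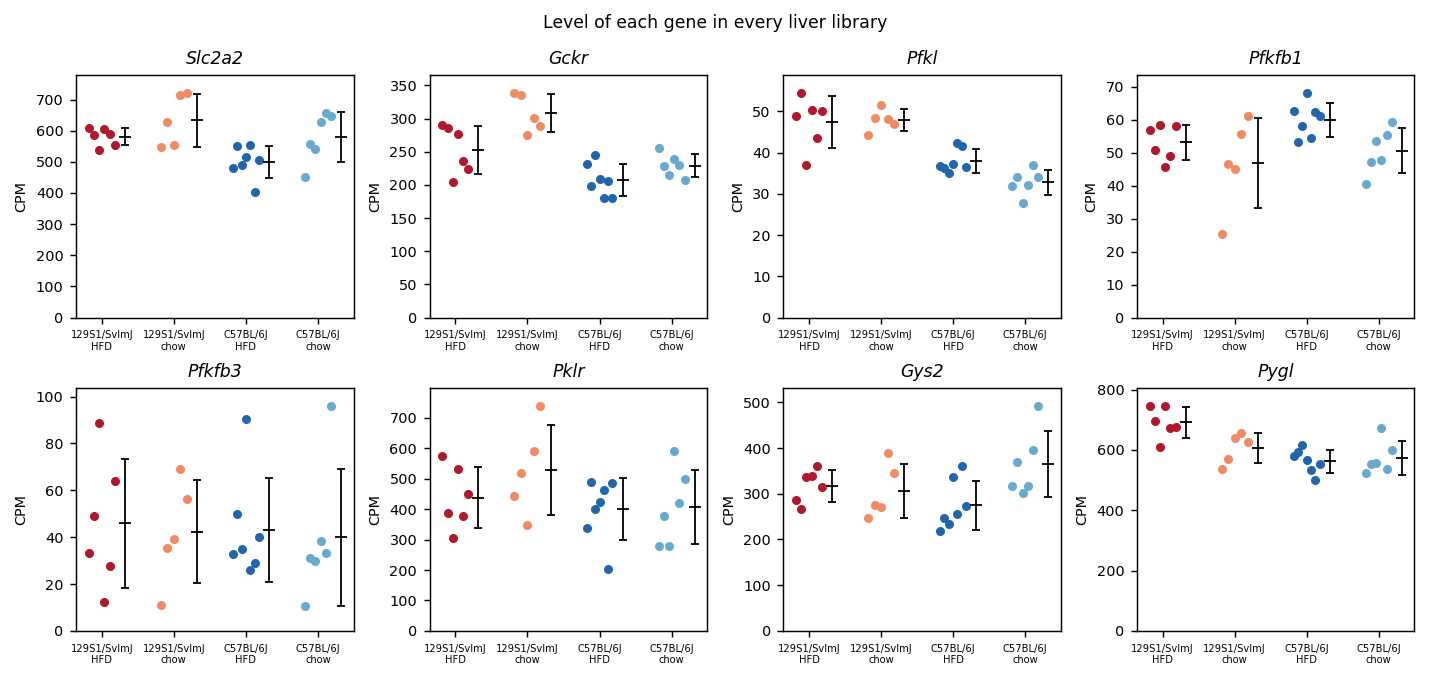
Level of each of the 8 genes in every liver library (CPM, linear axes that start at 0), with 1 point per mouse and the mean ± SD as a black bar beside each group. Gckr and Pfkl lie higher in 129S1/SvImJ on both diets, with chow libraries of the strains apart, and Pfkfb3 spreads from 10.4 to 96.1 CPM within chow C57BL/6J.

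Slc2a2 (ENSMUSG00000027690.13, chr3:28697903-28731359, mm10), the transporter gene, passed in none of the comparisons. Its lowest, median and highest levels were 539, 588 and 608 CPM in 129S1/SvImJ on high-fat diet, against 546, 628, 552, 716 and 722 CPM in the 5 libraries on chow. In C57BL/6J they were 402, 506 and 553 CPM on high-fat diet and 451, 591 and 657 CPM on chow. The high-fat libraries of either strain overlapped those on chow. The means on high-fat diet were lower in both strains, with a log2 fold change of -0.12 in 129S1/SvImJ (95% interval -0.32 to 0.07, edgeR adjusted p = 0.457) and -0.22 in C57BL/6J (-0.40 to -0.03, adjusted p = 0.0998). The difference in C57BL/6J passed without chow replicate 1 (adjusted p = 0.0350) and with the middle number of the mouse ID, which 2 to 4 mice of a group share, as a term (0.0489). On high-fat diet the level in 129S1/SvImJ relative to C57BL/6J was 0.22 on the log2 scale (SE 0.09), just outside the threshold (edgeR adjusted p = 0.0543). Leaving out 1 library at a time gave an adjusted p of 0.0386 to 0.117 over 24 fits and a call in 5, those without high-fat 129S1/SvImJ replicate 3, chow 129S1/SvImJ replicate 3, high-fat C57BL/6J replicate 2 or 5, or chow C57BL/6J replicate 1. It passed as well in 5 other alternatives, with an adjusted p of 0.0182 with the mouse-ID number as a term, 0.0309 with no filter, 0.0363 in a fit of the high-fat groups alone, 0.0380 with the replicate number as a block and 0.0348 without both libraries with fat-cell transcripts. On chow the strain difference was 0.13 (edgeR adjusted p = 0.375).

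Other genes by which sugars enter the cell did change with diet. Of 15 tested genes of a list of glucose and fructose transporters, hexokinases and fructose enzymes, 5 rose and 0 fell on high-fat diet in 129S1/SvImJ, with a median log2 fold change of 0.54, and 3 rose and 0 fell in C57BL/6J, with a median of 0.23. The list holds Slc2a2 and Gckr themselves. Of all tested genes, 5.41% were higher and 5.01% lower on high-fat diet in 129S1/SvImJ, and 7.66% and 7.20% in C57BL/6J. Slc2a1, which encodes the widespread transporter GLUT1, was 14.1 ± 2.28 CPM on high-fat diet and 8.84 ± 0.412 CPM on chow in 129S1/SvImJ (SD, n = 6 and 5; edgeR adjusted p = 0.000234), and 13.8 ± 1.32 CPM on high-fat diet and 10.9 ± 1.18 CPM on chow in C57BL/6J (SD, n = 7 and 6; adjusted p = 0.0180). Slc2a4, which encodes the insulin-responsive transporter of muscle and fat, also rose: it was 4.94 ± 2.23 CPM on high-fat diet and 0.549 ± 0.376 CPM on chow in 129S1/SvImJ (SD, n = 6 and 5; edgeR adjusted p = 7.63e-05). In C57BL/6J its level was 1.91 ± 0.707 CPM on high-fat diet and 0.484 ± 0.301 CPM on chow (SD, n = 7 and 6; adjusted p = 0.00396). The raw counts of Slc2a4 on chow were only 1 to 11 in 129S1/SvImJ and 1 to 13 in C57BL/6J, and the diets overlapped in both strains. Of 6 fat-cell markers, the 2 tested, Cfd and Fabp4, rose in C57BL/6J. The other 4, Adipoq, Lep, Plin1 and Retn, did not pass the count filter. Their sum exceeded 1 CPM only in high-fat C57BL/6J replicate 5 (6.31 CPM) and chow 129S1/SvImJ replicate 1 (1.36 CPM). In 129S1/SvImJ 0 of 2 passed, with a summed level of all 6 of 3.78 ± 0.752 CPM on high-fat diet and 3.82 ± 2.84 CPM on chow (SD). Both calls of Slc2a4 held without the libraries with fat-cell transcripts, and the part of Cfd and Fabp4 in them was not tested. Between strains 5 genes of the list were higher and 2 lower in 129S1/SvImJ on high-fat diet, with a median of 0.08, and 2 were higher and 1 lower on chow, with a median of 0.08. Over all tested genes, 17.9% were higher and 19.1% lower on high-fat diet, and 12.6% and 12.5% on chow. Slc2a9, which encodes a urate transporter, was among the higher ones on high-fat diet (log2 fold change 0.39, edgeR adjusted p = 0.000371) and on chow (0.30, adjusted p = 0.0137). Slc2a2 nevertheless held most of the RNA of Slc2a1, Slc2a2, Slc2a3, Slc2a4, Slc2a8, Slc2a9 and Slc2a10. Counted per kilobase of exon, its share of these 7 genes was 79.6% ± 0.728 in 129S1/SvImJ on high-fat diet and 82.4% ± 1.64 on chow, and 80.3% ± 3.38 in C57BL/6J on high-fat diet and 82.9% ± 2.56 on chow (SD). Slc2a9 had 16.1 CPM per kilobase in 129S1/SvImJ on high-fat diet, against 101 for Slc2a2.

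Gckr (ENSMUSG00000059434.8, chr5:31297443-31327314), the gene of the regulatory protein, was higher in 129S1/SvImJ on both diets. Its lowest, median and highest levels on high-fat diet were 204, 257 and 291 CPM in 129S1/SvImJ, against 179.8, 207 and 245 CPM in C57BL/6J. On chow the 5 libraries of 129S1/SvImJ had 339, 336, 275, 301 and 288 CPM, against 207, 229 and 255 CPM as the lowest, median and highest in C57BL/6J. The strains overlapped on high-fat diet and were apart on chow, where every 129S1/SvImJ library lay above every C57BL/6J library. The log2 fold change was 0.29 on high-fat diet (SE 0.09, edgeR adjusted p = 0.0105) and 0.43 on chow (SE 0.09, adjusted p = 0.00124). Both calls held in each of the 24 fits without 1 library. Within 129S1/SvImJ the mean was lower on high-fat diet than on chow, by a log2 fold change of -0.28 with an adjusted p of 0.0538 by edgeR. That value passed in 9 of the 24 fits without 1 library, with an adjusted p of 0.0350 to 0.156 over them, and in DESeq2 (adjusted p = 0.0347). In C57BL/6J the diet difference was -0.14 (95% interval -0.32 to 0.04, edgeR adjusted p = 0.291).

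Pfkl (ENSMUSG00000020277.10, chr10:77986947-78010083), the liver form of phosphofructokinase, was higher in 129S1/SvImJ on both diets and had the smallest p of the 8 genes on chow. On high-fat diet its lowest, median and highest levels were 36.9, 49.6 and 54.5 CPM in 129S1/SvImJ, against 35.0, 36.7 and 42.3 CPM in C57BL/6J. On chow the 129S1/SvImJ libraries had 44.3, 48.4, 51.5, 48.2 and 47.0 CPM, against 27.8, 33.0 and 37.0 CPM in C57BL/6J. The strains overlapped on high-fat diet and were apart on chow. The log2 fold change was 0.32 on high-fat diet (SE 0.08, edgeR adjusted p = 0.00171) and 0.54 on chow (SE 0.08, adjusted p = 1.93e-05), and both calls held in each of the 24 fits without 1 library. The diet difference in 129S1/SvImJ was small (log2 fold change -0.02, 95% interval -0.19 to 0.16, adjusted p = 0.938). In C57BL/6J it was 0.21 higher on high-fat diet, short of the threshold (0.05 to 0.37, adjusted p = 0.0691), and it passed there with upper-quartile scaling (adjusted p = 0.0490). The difference between these diet effects had an edgeR adjusted p of 0.375. Kupffer cell markers went the other way between strains: 0 of 9 were higher and 6 lower in 129S1/SvImJ on high-fat diet, with a median log2 fold change of -0.76, and 0 were higher and 9 lower on chow, with a median of -1.25. Their part in the strain differences of Pfkl and Gckr was not tested.

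Pfkfb1 (ENSMUSG00000025271.13, chrX:150588229-150643878), the liver form of the bifunctional enzyme, passed in none of the 5 comparisons. Its levels were 45.8, 54.0 and 58.4 CPM (lowest, median and highest) in 129S1/SvImJ on high-fat diet and 25.3, 46.6, 45.2, 55.9 and 61.3 CPM in the libraries on chow. In C57BL/6J they were 53.3, 61.3 and 68.3 CPM on high-fat diet and 40.5, 50.7 and 59.3 CPM on chow. The lowest value belonged to chow replicate 1 of 129S1/SvImJ, which also held fat-cell transcripts. The diet difference was 0.18 on the log2 scale in 129S1/SvImJ (95% interval -0.11 to 0.47, edgeR adjusted p = 0.461) and 0.25 in C57BL/6J (-0.02 to 0.51, adjusted p = 0.208). The strain difference was -0.18 on high-fat diet (edgeR adjusted p = 0.295) and -0.11 on chow (adjusted p = 0.617). Its exons share 123 bases, 3.06% of their length, with Apex2 on the opposite strand, which had 19.4 to 30.1 CPM. Whether the counting used strand is not given.

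Pfkfb3 (ENSMUSG00000026773.19, chr2:11471433-11554077), an inducible form with high kinase activity, varied more between mice of a group than between groups. Its 129S1/SvImJ libraries had 12.3 CPM at the lowest, 41.3 at the median and 88.6 at the highest on high-fat diet, against 11.3, 35.3, 39.4, 69.2 and 56.3 CPM on chow. Its C57BL/6J libraries had 25.9, 34.8 and 90.3 CPM on high-fat diet and 10.4, 32.3 and 96.1 CPM on chow. The highest library of a group was 7.22 times the lowest in 129S1/SvImJ on high-fat diet, 6.15 times on chow, 3.49 times in C57BL/6J on high-fat diet and 9.22 times on chow. All groups overlapped. The diet difference was 0.11 on the log2 scale in 129S1/SvImJ (95% interval -0.98 to 1.20) and 0.11 in C57BL/6J (-0.88 to 1.10), with edgeR adjusted p = 0.930 and 0.913. The strain difference was 0.08 on high-fat diet (-0.91 to 1.07) and 0.08 on chow (-1.01 to 1.17). These intervals hold changes of 2-fold in either direction or nearly so.

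Pklr (ENSMUSG00000041237.12, chr3:89136142-89146784), the liver pyruvate kinase, also passed in none of the comparisons. Its lowest, median and highest levels were 306, 419.8 and 574 CPM in 129S1/SvImJ on high-fat diet, against 444, 518, 349, 591 and 739 CPM in the libraries on chow. In C57BL/6J they were 205, 425 and 490.4 CPM on high-fat diet and 278, 398 and 591 CPM on chow. The groups overlapped throughout. The diet difference was -0.27 on the log2 scale in 129S1/SvImJ (95% interval -0.75 to 0.21, edgeR adjusted p = 0.514) and -0.02 in C57BL/6J (-0.47 to 0.42, adjusted p = 0.966). The strain difference was 0.13 on high-fat diet (-0.32 to 0.57, adjusted p = 0.683) and 0.38 on chow (-0.11 to 0.86, adjusted p = 0.264). Its exons share 711 bases, 22.0% of their length, with Hcn3 on the opposite strand, which had at most 0.523 CPM in any library.

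**Figure D2:**
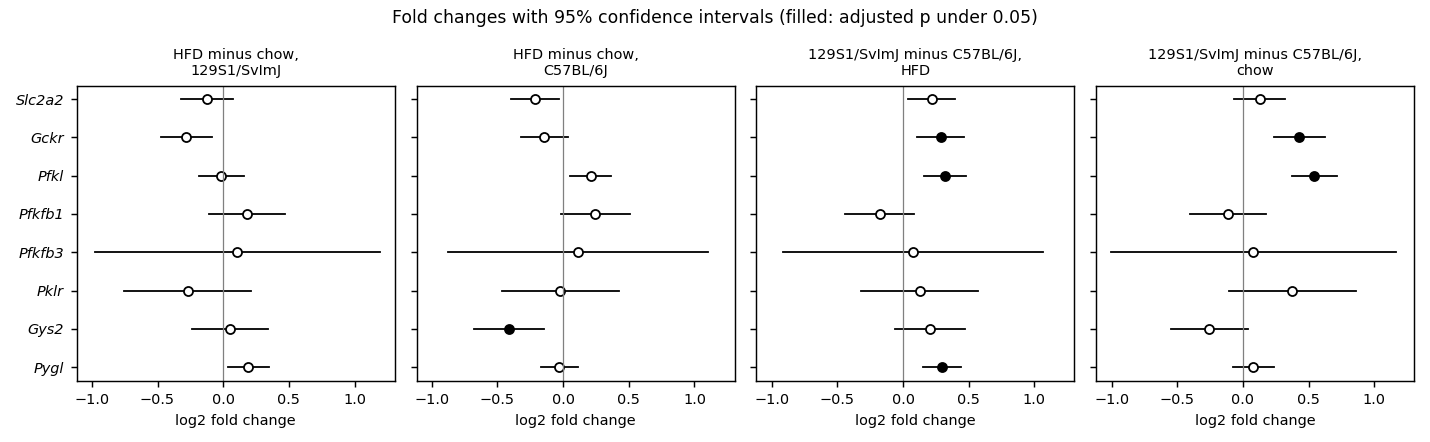
Log2 fold change (points) with its 95% confidence interval (lines) for the 8 genes in the 4 comparisons of 2 groups; filled points passed an edgeR adjusted p of 0.05. The filled points are Gys2 for diet in C57BL/6J, Gckr, Pfkl and Pygl for strain on high-fat diet, and Gckr and Pfkl for strain on chow, and Pfkfb3 has the widest intervals.

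The other genes of a glycolysis list that passed between strains were all lower in 129S1/SvImJ, where Pfkl was higher. Of 23 tested genes of this list, 1 was higher and 9 lower in 129S1/SvImJ on high-fat diet, with a median log2 fold change of -0.17, and 1 was higher and 5 lower on chow, with a median of -0.16. The higher gene was Pfkl in both. Among all tested genes, 17.9% were higher and 19.1% lower on high-fat diet, and 12.6% and 12.5% on chow. Gpi1, the isomerase that makes fructose 6-phosphate, was 95.7 ± 4.32 CPM in 129S1/SvImJ and 157 ± 36.7 CPM in C57BL/6J on high-fat diet (SD, n = 6 and 7; log2 fold change -0.71, edgeR adjusted p = 4.42e-06). On chow its log2 fold change was -0.71 as well (adjusted p = 2.45e-05), and the strains were apart on both diets. Ldha, which encodes a lactate dehydrogenase subunit, was lower in 129S1/SvImJ on high-fat diet (log2 fold change of -0.71 with edgeR adjusted p = 9.68e-06) and on chow (-0.42, adjusted p = 0.00971). Some forms typical of other tissues were also lower: on the log2 scale Pkm stood at -0.86 (edgeR adjusted p = 0.000353) and Pfkfb4 at -1.18 (adjusted p = 0.00601), both on high-fat diet. Hk1 (-0.60, edgeR adjusted p = 0.00324) and Hk2 (-1.35, adjusted p = 0.0181) were likewise lower on high-fat diet, and the call of Hk2 was lost without high-fat C57BL/6J replicate 5, the library with the most fat-cell transcripts (adjusted p = 0.0651), without both libraries with fat-cell transcripts (0.0648), in a fit of the high-fat groups alone (0.0665) and with no filter (0.0510). Markers of several other cell types were lower with these genes in 129S1/SvImJ. Besides the Kupffer cell markers, on high-fat diet 4 of 6 endothelial markers were lower and 1 higher (median log2 fold change -0.30). Their summed level went the other way, at 418 ± 18.7 CPM in 129S1/SvImJ and 370 ± 26.8 CPM in C57BL/6J (SD). Of 5 cholangiocyte markers 3 were lower and 0 higher (-1.69). Of 7 stellate cell markers 2 were lower and 1 higher (-0.42), and of 4 tested recruited myeloid markers 1 was lower and 0 higher (-1.16). Both tested fat-cell markers, Cfd and Fabp4, were lower (-6.07), while Adipoq, Lep, Plin1 and Retn did not pass the count filter. On chow 4 of 6 endothelial, 1 of 5 cholangiocyte, 2 of 7 stellate cell, 1 of 4 recruited myeloid and 0 of 2 fat-cell markers were lower. There 1 endothelial marker was higher, and the summed endothelial level was 382 ± 47.1 CPM in 129S1/SvImJ and 383 ± 31.5 CPM in C57BL/6J (SD). The part of these markers in the lower glycolytic genes was not tested.

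With diet, 2 genes of the glycolysis list rose and 2 fell in 129S1/SvImJ, with a median log2 fold change of 0.01, and 1 rose and 1 fell in C57BL/6J, with a median of 0.09. The shares over all tested genes were 5.41% higher and 5.01% lower in 129S1/SvImJ, and 7.66% and 7.20% in C57BL/6J. Aldoc, the aldolase form typical of brain, fell in both strains. It was 2.59 ± 0.329 CPM on high-fat diet and 15.1 ± 3.17 CPM on chow in 129S1/SvImJ (SD, n = 6 and 5; log2 fold change -2.54, edgeR adjusted p = 9.68e-10). In C57BL/6J it was 3.72 ± 0.745 CPM on high-fat diet and 14.4 ± 3.84 CPM on chow (SD, n = 7 and 6; log2 fold change -1.95, adjusted p = 8.63e-09). The diets were apart in both strains, and the call held in each of the 24 fits without 1 library.

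Gys2 (ENSMUSG00000030244.7, chr6:142422613-142473109), the liver glycogen synthase, was the one gene of the 8 called for diet. In C57BL/6J its lowest, median and highest levels were 219, 255 and 359.9 CPM on high-fat diet, against 301, 343 and 492 CPM on chow. In 129S1/SvImJ they were 267, 326 and 359.9 CPM on high-fat diet, against 246, 276, 272, 390.2 and 346 CPM in the libraries on chow. The diets overlapped in both strains. The log2 fold change was -0.41 in C57BL/6J (SE 0.13, edgeR adjusted p = 0.0333) and 0.05 in 129S1/SvImJ (SE 0.14, adjusted p = 0.872). The difference between these diet effects was 0.46 (95% interval 0.07 to 0.86), with an adjusted p of 0.270 and an unadjusted p of 0.0242 by edgeR. The call in C57BL/6J lay near the threshold. It passed in 16 of the 24 fits without 1 library, in which the log2 fold change was -0.49 to -0.30. It was lost without chow replicate 2 (adjusted p = 0.0567), 5 (0.0723) or 6 (0.117), and without high-fat replicate 1 (0.0693), 2 (0.0672), 3 (0.0687), 5 (0.0641) or 7 (0.0563). It was also lost with no filter on low counts (0.0870), in a fit of only the C57BL/6J groups (0.0625) and without both libraries with fat-cell transcripts (0.0584). Of 5 hepatocyte markers, 0 rose and 3 fell with diet in C57BL/6J, with a median log2 fold change of -0.42, and 0 rose and 1 fell in 129S1/SvImJ, with a median of -0.26. Their part in the change of Gys2 was not tested. Between strains Gys2 did not pass on high-fat diet (0.21, edgeR adjusted p = 0.222) or on chow (-0.25, adjusted p = 0.208).

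Pygl (ENSMUSG00000021069.17, chr12:70190811-70231488), the liver glycogen phosphorylase, was higher in 129S1/SvImJ on high-fat diet. There its lowest, median and highest levels were 609, 686 and 746 CPM in 129S1/SvImJ, against 501, 566 and 615 CPM in C57BL/6J. On chow the 129S1/SvImJ libraries had 538, 568.4, 640.1, 655 and 627 CPM, against 524, 554 and 674 CPM in C57BL/6J. The strains overlapped on both diets, on high-fat diet only between 609 and 615 CPM. The log2 fold change was 0.30 on high-fat diet (SE 0.07, edgeR adjusted p = 0.00135), a call that held in each of the 24 fits without 1 library, and 0.08 on chow (95% interval -0.08 to 0.23, adjusted p = 0.499). The difference between those strain effects was 0.22 (0.01 to 0.43), with an edgeR adjusted p of 0.330, so the strain effect is not shown to differ between diets. With diet the change was 0.19 in 129S1/SvImJ (adjusted p = 0.110) and -0.03 in C57BL/6J (adjusted p = 0.840) by edgeR. After group means were taken out, Pygl followed 7SK more than the other 7 genes did (Pearson r = 0.53 over 24 libraries, against -0.11 to 0.25), and with the log2 level of 7SK as a term its strain difference on high-fat diet was 0.28 (adjusted p = 0.00113).

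The genes of a glycogen list, which holds Gys2 and Pygl themselves, divided between higher and lower. Of 24 tested, 4, Pygl among them, were higher and 5 lower in 129S1/SvImJ on high-fat diet, with a median log2 fold change of 0.07. On chow 4 were higher and 1 lower, with a median of 0.06. Of all tested genes, 17.9% were higher and 19.1% lower on high-fat diet, and 12.6% and 12.5% on chow. Nhlrc1, which encodes the ubiquitin ligase malin, was higher by a log2 fold change of 0.87 on high-fat diet and 1.19 on chow (edgeR adjusted p = 0.000241 and 6.49e-05). Ppp1r3e, a subunit that brings protein phosphatase 1 to glycogen, was 1.40 ± 0.166 CPM in 129S1/SvImJ and 8.18 ± 1.88 CPM in C57BL/6J on high-fat diet (SD, n = 6 and 7; log2 fold change -2.55, edgeR adjusted p = 1.86e-11). On chow its log2 fold change was -1.52 (adjusted p = 8.73e-07), and the strains were apart on both diets. The isozymes Gys1 and Pygb were at most 6.20 and 11.1 CPM in any library.

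With diet, 0 genes of the glycogen list rose and 3 fell in 129S1/SvImJ, with a median log2 fold change of 0.05, and 3 rose and 1, Gys2, fell in C57BL/6J, with a median of 0.04. All tested genes had shares of 5.41% higher and 5.01% lower in 129S1/SvImJ, and 7.66% and 7.20% in C57BL/6J. Stbd1, which encodes a glycogen-binding protein, was 47.0 ± 5.24 CPM on high-fat diet and 75.4 ± 8.89 CPM on chow in 129S1/SvImJ (SD, n = 6 and 5; log2 fold change -0.68, edgeR adjusted p = 0.000677). In C57BL/6J its log2 fold change was -0.31 (adjusted p = 0.0556). Ppp1r3e fell in 129S1/SvImJ (-0.79, edgeR adjusted p = 0.0219), and this call was lost without chow 129S1/SvImJ replicate 4 (adjusted p = 0.0505), with the level of 7SK as a term (0.0742) and in limma on the deposited variance-stabilized values (0.0504), where the difference was -0.35. Per kilobase of exon, the ratio of Gys2 to Pygl was 1.20 ± 0.186 on high-fat diet and 1.31 ± 0.182 on chow in 129S1/SvImJ (SD, n = 6 and 5), and 1.28 ± 0.324 on high-fat diet and 1.66 ± 0.333 on chow in C57BL/6J (SD, n = 7 and 6), with overlap in both.

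The genes for the fate of pyruvate that passed for diet were all higher on high-fat diet. Of 14 tested, 3 rose and 0 fell in 129S1/SvImJ, with a median log2 fold change of 0.09, and 4 rose and 0 fell in C57BL/6J, with a median of 0.15. Over all tested genes, 5.41% rose and 5.01% fell in 129S1/SvImJ, and 7.66% and 7.20% in C57BL/6J. Pcx, the pyruvate carboxylase that feeds the citric acid cycle and gluconeogenesis, rose by a log2 fold change of 0.31 in 129S1/SvImJ (edgeR adjusted p = 0.0369) and 0.53 in C57BL/6J (adjusted p = 0.000243). Its call in 129S1/SvImJ was lost without chow replicate 1, 2, 4 or 5 (adjusted p = 0.0710, 0.0518, 0.0982 and 0.0613), without high-fat replicate 1, 2, 4 or 6 (0.0790, 0.0665, 0.0524 and 0.0696) and with the level of 7SK as a term (0.127). Pdk2, a kinase that switches off pyruvate dehydrogenase, rose by 0.44 in each strain (edgeR adjusted p = 0.00232 in 129S1/SvImJ and 0.000780 in C57BL/6J). Between strains 4 genes of this list were higher and 3 lower in 129S1/SvImJ on high-fat diet, with a median of 0.08, and 3 were higher and 0 lower on chow, with a median of 0.08. The shares over all tested genes were 17.9% higher and 19.1% lower on high-fat diet, and 12.6% and 12.5% on chow. Dlat, a subunit of pyruvate dehydrogenase, was lower on high-fat diet (-0.69, edgeR adjusted p = 2.87e-05), and Pdk1 was higher on chow (0.59, adjusted p = 0.00229).

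Of 4 genes that release glucose, G6pc, Slc37a4, Pck1 and Fbp1, none passed for diet in either strain, with a median log2 fold change of -0.06 in 129S1/SvImJ and -0.34 in C57BL/6J. Fbp1, the enzyme opposite phosphofructokinase, was 1100.0 ± 108 CPM in 129S1/SvImJ and 816 ± 34.1 CPM in C57BL/6J on high-fat diet (SD, n = 6 and 7; log2 fold change 0.43, edgeR adjusted p = 7.39e-06), and 974 ± 48.4 CPM in 129S1/SvImJ and 848 ± 65.2 CPM in C57BL/6J on chow (SD, n = 5 and 6; log2 fold change 0.20, adjusted p = 0.0358). Slc37a4, the glucose 6-phosphate transporter, was higher by 0.62 on high-fat diet and 0.40 on chow (edgeR adjusted p = 4.70e-05 and 0.0113). Pfkl and Fbp1, which act in opposite directions at the same step, were thus both higher in 129S1/SvImJ on both diets.

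Mlxipl, which encodes ChREBP, did not pass in any comparison: its level was 567 ± 65.3 CPM on high-fat diet and 459 ± 59.9 CPM on chow in 129S1/SvImJ, and 570 ± 153 CPM on high-fat diet and 540 ± 52.4 CPM on chow in C57BL/6J (SD). Of 18 genes listed as targets of ChREBP, which include Pklr and Slc2a2, 1 rose and 5 fell with diet in 129S1/SvImJ, with a median log2 fold change of -0.26, and 1 rose and 2 fell in C57BL/6J, with a median of -0.04. Among all tested genes, 5.41% rose and 5.01% fell in 129S1/SvImJ, and 7.66% and 7.20% in C57BL/6J. Arrdc4, an arrestin relative, fell, with a log2 fold change of -0.97 in 129S1/SvImJ (edgeR adjusted p = 7.47e-05) and -0.72 in C57BL/6J (adjusted p = 0.000558). Txnip, its relative, did not pass (-0.24, edgeR adjusted p = 0.727 in 129S1/SvImJ; -0.79, adjusted p = 0.0962 in C57BL/6J). Fasn, the fatty acid synthase, fell in 129S1/SvImJ (-1.58, edgeR adjusted p = 0.00326), and in C57BL/6J its difference was 0.07 (adjusted p = 0.907). The difference between these diet effects of Fasn did not pass in edgeR. It passed in 1 of the 24 edgeR fits without 1 library (adjusted p = 0.0377 to 0.170 over them) and in DESeq2 (-1.66, adjusted p = 0.0311). Between strains 1 target was higher and 7 lower in 129S1/SvImJ on high-fat diet, with a median of -0.01, and 1 was higher and 3 lower on chow, with a median of -0.06. All tested genes had shares of 17.9% higher and 19.1% lower on high-fat diet, and 12.6% and 12.5% on chow. Elovl6, a fatty acid elongase, was lower, with a log2 fold change of -1.69 on high-fat diet and -1.42 on chow (edgeR adjusted p = 4.85e-07 and 2.25e-05), and so was Gpd1, with -0.86 and -0.57 (adjusted p = 5.54e-05 and 0.00956). Pklr and Slc2a2 did not pass in any of these comparisons.

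Of 14 transcription factors of the pathway, 1 rose and 0 fell with diet in 129S1/SvImJ, with a median log2 fold change of 0.09, and 1 rose and 1 fell in C57BL/6J, with a median of 0.02. The shares over all tested genes were 5.41% higher and 5.01% lower in 129S1/SvImJ, and 7.66% and 7.20% in C57BL/6J. Srebf1, the gene of a lipogenic factor that responds to insulin, was 475 ± 116 CPM on high-fat diet and 299 ± 38.1 CPM on chow in 129S1/SvImJ (SD, n = 6 and 5; edgeR adjusted p = 0.0309), a call lost without chow replicate 1, 2, 3 or 4 (adjusted p = 0.0515, 0.0797, 0.0665 and 0.0591), without high-fat replicate 1, 2, 4 or 5 (0.0587, 0.0550, 0.0707 and 0.0546), with the level of 7SK as a term (0.120), with no filter (0.0721) and without both libraries with fat-cell transcripts (0.0577). In C57BL/6J it was 749 ± 121 CPM on high-fat diet and 285 ± 87.3 CPM on chow (SD, n = 7 and 6; adjusted p = 2.44e-05), with the diets apart. Hnf4a, a hepatocyte factor, fell in C57BL/6J (-0.53, edgeR adjusted p = 0.00798), beside the lower hepatocyte markers given above. Between strains 1 factor was higher and 2 lower in 129S1/SvImJ on high-fat diet, with a median of 0.07, and 0 were higher and 1 lower on chow, with a median of 0.05. Among all tested genes, 17.9% were higher and 19.1% lower on high-fat diet, and 12.6% and 12.5% on chow. Hif1a, a factor that drives glycolytic genes under low oxygen, was the one lower on both diets (-0.23, edgeR adjusted p = 0.00655 on high-fat diet; -0.25, adjusted p = 0.0106 on chow).

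Levels of the 8 genes were compared with each other as CPM per kilobase of merged exons. In 129S1/SvImJ on high-fat diet the order was Pklr (135 ± 31.2), Gys2 (119.4 ± 13.2), Slc2a2 (101 ± 4.84), Pygl (100.2 ± 7.43), Gckr (58.4 ± 8.39), Pfkfb1 (13.2 ± 1.33), Pfkl (7.10 ± 0.940) and Pfkfb3 (6.07 ± 3.64; SD, n = 6). The order on chow in that strain was the same. In C57BL/6J Pfkfb3 stood above Pfkl on both diets, and on chow Gys2 (137 ± 27.1) stood above Pklr (126 ± 38.0; SD, n = 6). Neighbours among Pklr, Gys2, Slc2a2 and Pygl overlapped over the libraries of each of the 4 groups, and so did Pfkl and Pfkfb3. Gckr was apart from Pfkfb1 in each group, and Pygl was apart from Gckr in each group except 129S1/SvImJ on chow.

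Against their isozymes, most of these genes held nearly all RNA of their family per kilobase. Pklr held 98.6% ± 0.353 of pyruvate kinase RNA in 129S1/SvImJ on high-fat diet, 98.9% ± 0.448 on chow, 97.3% ± 1.04 in C57BL/6J on high-fat diet and 98.1% ± 0.495 on chow (SD). Gys2 held 99.0% to 99.3% of glycogen synthase RNA and Pygl 97.7% to 98.7% of glycogen phosphorylase RNA as group means. Pfkl shared its family with Pfkm by this measure: its share was 55.5% ± 5.19 in 129S1/SvImJ on high-fat diet, 54.2% ± 2.93 on chow, 51.1% ± 1.94 in C57BL/6J on high-fat diet and 47.3% ± 3.45 on chow (SD). These shares depend on merged exon lengths of 6675 bases for Pfkl and 3340 for Pfkm, and the length of the RNA expressed was not measured. In CPM, Pfkl had a mean of 47.4 and Pfkm of 18.2 in 129S1/SvImJ on high-fat diet. Of the bifunctional enzymes, Pfkfb1 held 54.9% to 62.6% and Pfkfb3 22.4% to 24.6% as group means. In single libraries the share of Pfkfb3 ran from 9.29% to 40.2%, both in C57BL/6J on chow.

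**Figure D3:**
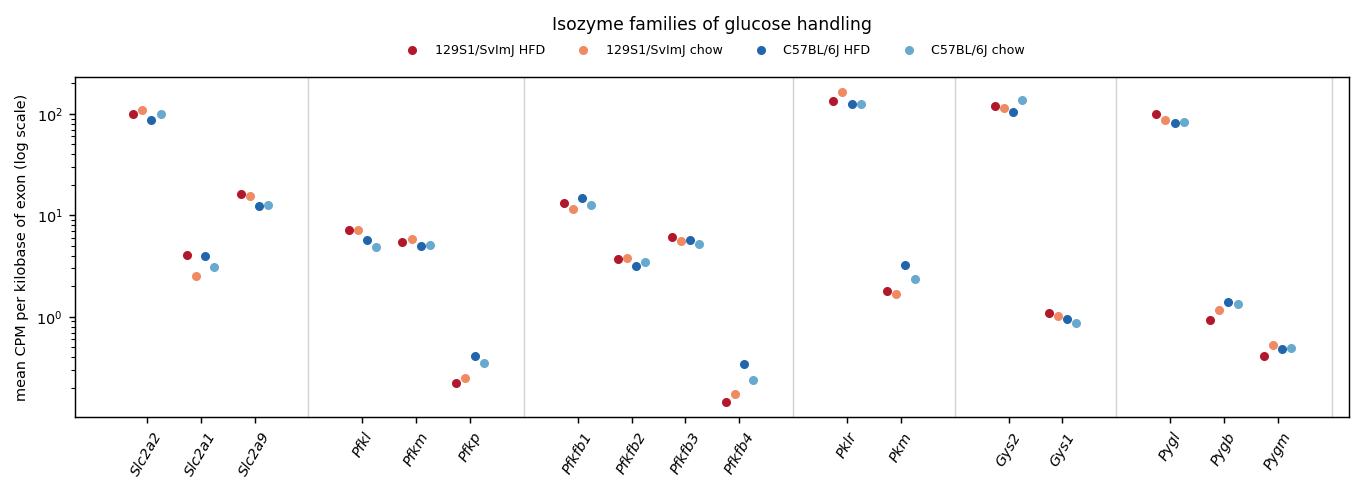
Mean CPM per kilobase of exon (log scale) of the 8 genes but Gckr and of their isozymes, by family, with 1 point per group. Pklr, Gys2 and Pygl lie far above the other forms of their families, while Pfkl lies beside Pfkm and Pfkfb1 above Pfkfb2, Pfkfb3 and Pfkfb4.

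From mouse to mouse, Slc2a2 and Pklr moved together most closely of any pair of the 8 genes. After group means of log2 CPM were taken out, Pearson r was 0.85 and Spearman rho 0.85 over the 24 libraries, and r was 0.79 without chow C57BL/6J replicate 1 and high-fat C57BL/6J replicate 6, the libraries farthest from the median of Slc2a2. The next pair was Pfkfb1 and Pfkfb3, with r = 0.77 and rho = 0.70, and with r = 0.77 without chow 129S1/SvImJ replicates 1 and 5. The lowest value was that of Gckr and Pfkfb3, r = -0.48. These values are descriptions of pairs picked by their r, and all genes of a library share its depth and dissection.

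**Figure D4:**
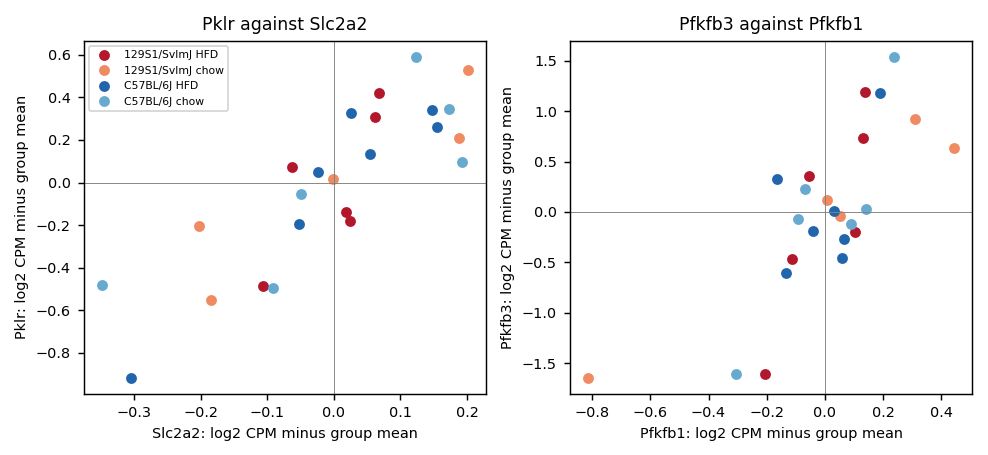
Log2 CPM of Pklr against Slc2a2 and of Pfkfb3 against Pfkfb1, each as the difference from the mean of its group, with 1 point per mouse. Libraries high in one gene of a pair tend to be high in the other, and Pfkfb3 spans a wider range than Pfkfb1.

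Among 10161 genes with a mean of at least 5 CPM, those most like each of the 8 over the 24 libraries were listed in the same way. Slc2a2 had Pklr, Gbe1, the glycogen branching enzyme (r = 0.79), and Slc5a6 (r = 0.78). Pklr had Slc2a2, Fmo1 (r = 0.81) and Gbe1 (r = 0.81). Pfkfb3 had Cebpd (r = 0.91), Lpin1 (r = 0.91) and Camsap2 (r = 0.90). Pfkfb1 had Por (r = 0.87), Elf2 (r = 0.84) and Etfbkmt (r = 0.84), and Gys2 had Ciart (r = 0.85), Ak4 (r = 0.84) and B4galt5 (r = 0.84). Gckr had Nr5a2, S1pr1 and Ppp2r3a (r = 0.78 each), Pygl had Mpp5 (r = 0.80), Ripk1 (r = 0.79) and Enpep (r = 0.78), and Pfkl had Gtpbp6 (r = 0.76), Hyi (r = 0.73) and Mmrn2 (r = 0.71).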

How the data were processed

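The authors deposited raw gene counts, as 1 table per library and as 1 matrix, and all 24 single tables were identical to the matrix columns. The authors also deposited variance-stabilized values on a log2-like scale, used here for 1 alternative. Per the labels' protocols, total RNA was depleted of ribosomal RNA and made into directional libraries. Per the submitters' processing notes, the tools were Trimmomatic 0.36, Bowtie2 2.2.3, STAR 2.5.4b and DESeq2 1.26.0 with mm10, with no role given, and no source names the annotation or the strand setting of the counts. Of 53677 identifiers, 53582 matched GENCODE M21, from which symbols, mm10 coordinates and exon lengths were taken.

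The tests used edgeR 4.0.16 under R 4.3.3, with filterByExpr, TMM scaling and robust quasi-likelihood fits with 1 mean per group over 24 libraries. Tests were two-sided, with Benjamini-Hochberg adjustment over 14533 genes and a threshold of 0.05. Fold changes are log2 with a prior count of 0.125, and SE is the fold change over the root of F. Co-variation used log2 CPM with a pseudocount of 0.5. Single columns were all mapped, so 0 per-sample columns were left unused. Procedures were tested on simulated data. Alternatives were DESeq2 1.42.0, limma 3.58.1 on the deposited log2 values, other scaling, no filter, fits of 2 groups, terms for replicate, mouse-ID number or 7SK, and leaving out libraries. Each mouse gave 1 library, so p-values measure the spread between mice. All 61 pairs of libraries of a group differed by more than sampling noise, with chi-square values of 5.77 to 80.5 for each degree of freedom.

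The 8 genes and the gene lists were chosen with earlier results of these data known. Beyond the 8, the text names the called genes with the 4 smallest p of each list over the 4 comparisons of 2 groups, and the fixed genes Mlxipl, Txnip, Gys1, Pygb, Pfkfb4, Pkm, Hk1 and Hk2. Overlapping genes, cell type markers and the genes that release glucose are named as well, and some genes that these rules would name are not reported here. For likeness it names the 3 genes with the highest r.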

Additional observations from a re-analysis of the deposited data

Results flagged for a closer look

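Of the 8 genes in the 4 groups, Pfkfb3 was flagged in both C57BL/6J groups for a single library far above the rest of its group. In C57BL/6J on high-fat diet, replicate 4 had 90.3 CPM and the next library 49.8 CPM. In C57BL/6J on chow, replicate 6 had 96.1 CPM and the next library 38.4 CPM. Such gaps occur by chance in about 1 of 20 groups of normally distributed values. Each of the 8 genes was searched in each of the 4 groups, so gaps like these can arise by chance. The search used CPM and not log2 values. No other gene of the 8 had such a library in these groups, and 129S1/SvImJ on high-fat diet, with 88.6 CPM at its highest, had none by the same criterion.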

How the results depend on the processing

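None of the log2 fold changes of the 8 genes changed sign past the threshold in the alternatives run, and outside the fits without 1 library 378 values kept their side of it, 11 came to pass and 3 no longer passed. The number of the 8 genes called between strains on chow, 2, was the same under each alternative in which it was counted. On high-fat diet it was 3, and 4, with Slc2a2, in 5 of the 24 fits without 1 library and in 5 other alternatives. The strain calls of Gckr, Pfkl and Pygl held in all 24 fits without 1 library. For diet in C57BL/6J the number called, 1, was 0 without both libraries with fat-cell transcripts, with no filter and in fits of the 2 groups alone. It was 2 with the mouse-ID number as a term and with upper-quartile scaling, and 0 to 2 over the fits without 1 library. For diet in 129S1/SvImJ it was 0, and 1, Gckr, with the 7SK level as a term, DESeq2, limma on the deposited values and the replicate block, and 0 to 1 over the fits without 1 library. The number of all genes called for the difference in diet response, 43, was 121 with log2 7SK as a continuous term, 170 with the 7SK level, 297 with DESeq2, 6 without both libraries with fat-cell transcripts and 17 with the replicate block, and 5 to 170 without 1 library (lowest without chow 129S1/SvImJ replicate 1, highest without high-fat C57BL/6J replicate 4). For diet in 129S1/SvImJ 1514 genes were called, and 943 to 1668 without 1 library, the lowest without chow replicate 1. The cause of these shifts was not tested. Replicate numbers were not taken to pair the mice, since the labels give them no shared litter or day. Of 33 same-numbered pairs across groups, 16 had a correlation over 0.1 (median 0.08), against 42 of 182 pairs with other numbers (median -0.02). Same-numbered libraries were thus somewhat more alike, and whether they shared a batch was not tested. Within groups, 7 of 25 pairs that shared the mouse-ID number had a correlation over 0.1 (median -0.13). Of 36 pairs with other mouse-ID numbers, 6 did (median -0.26). Mice that shared this number were thus somewhat more alike too, and the main tests took all mice as independent. With the replicate block, the genes called for diet in C57BL/6J went from 2159 to 1746. The continuous 7SK term and the removal of the fat-cell libraries were chosen after seeing the data, and the 7SK level held only chow 129S1/SvImJ replicates 3 and 4 as high. With 5 to 7 mice per group, Pfkfb3 and Pklr have intervals too wide to show small changes.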
